A study of Arabidopsis thaliana with 12 samples.

Results

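The root hair growth genes described here are 10 Arabidopsis thaliana loci chosen by name, of which 9 had a row among the 21200 genes of the deposited count table. All 9 passed the filter on low counts and were among the 18867 genes tested. LRX2 (AT1G62440) was not analysed here. The rule named loci and used no measured value, but the genes were chosen with earlier results of these data known.

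The RNA came from whole roots of wild-type Columbia (Col) seedlings grown upright on nutrient agar with days of 16 h light and 8 h dark. At 4 days after planting each seedling received 2 uL of 0.9% saline, of wild-type Azospirillum brasilense Az39, or of an ipdc mutant of A. brasilense, with both bacterial suspensions at an OD595 of 1. The ipdC gene of this soil bacterium encodes indole-3-pyruvate decarboxylase, an enzyme that makes the auxin indole-3-acetic acid, and the series compared the strains for their effect on root transcripts. Roots were taken 24 h or 7 d later, which gave 6 groups (saline, Az39 and ipdc at each time) of 2 libraries each, and each library held at least 50 pooled root systems. Whole root systems were used, so hair cells were sampled together with all other cells of the root, and the age of the plant cannot be told apart from the time since treatment.

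Root hairs are tubes that single epidermal cells push out by growing at their tip. The bHLH factor RHD6 (AT1G66470) starts the process, and the related factors RSL2 (AT4G33880) and RSL4 (AT1G27740) then keep the hair growing, with RSL4 also raised by auxin. At the tip, the NADPH oxidase RHD2 (AT5G51060) and the phosphatidylinositol transfer protein COW1 (AT4G34580) maintain the reactive oxygen, calcium and membrane traffic of growth, while the expansins EXPA7 (AT1G12560) and EXPA18 (AT1G62980), the leucine-rich extensin LRX1 (AT1G12040) and the proline-rich protein PRP3 (AT3G62680) act in the new cell wall.

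Some of the loci shared a regulatory motif. The Root Hair Element, a short sequence known from promoters active in hair cells and bound by RSL4, was searched on both strands in the 500 bases before each annotated gene start (RefSeq, TAIR10.1). It was present at 4 of the 9 loci (44.4%), against 400 of 27443 nuclear protein-coding genes (1.46%) and 308 of the 21116 of these in the count table (1.46%). The motif was defined in part on promoters of EXPA7 and EXPA18, so those matches are not independent of its definition. All 4 matches lay before genes of the cell wall, and none lay before the 3 regulators or before RHD2 and COW1. The pieces below show each match in capitals within its neighbouring bases, written 5′ to 3′ along the plus strand, which is also the strand of all 4 genes.
EXPA7: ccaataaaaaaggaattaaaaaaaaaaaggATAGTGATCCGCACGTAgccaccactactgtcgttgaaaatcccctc
EXPA18: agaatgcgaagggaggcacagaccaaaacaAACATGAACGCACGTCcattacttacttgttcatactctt
LRX1: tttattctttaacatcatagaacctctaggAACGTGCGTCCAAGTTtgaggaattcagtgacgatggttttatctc
PRP3: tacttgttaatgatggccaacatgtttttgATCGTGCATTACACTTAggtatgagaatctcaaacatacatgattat

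The EXPA7 piece is chr1:4276397-4276473, with the motif on the plus strand 78 to 62 bases before the start of a gene that spans chr1:4276505-4277969. The EXPA18 piece is chr1:23331493-23331562, with the motif 40 to 25 bases before a gene at chr1:23331563-23333246, and it also lies in the neighbouring annotated gene AT1G62978. The LRX1 piece is chr1:4069869-4069944 and its motif lies on the minus strand, 93 to 78 bases before a single-exon gene at chr1:4069992-4072681. The PRP3 piece is chr3:23182525-23182601 and its motif also lies on the minus strand, 167 to 151 bases before a gene at chr3:23182722-23184042. The G-box CACGTG, a palindrome that many bHLH factors bind, was in this window at 0 of the 9 loci, against 9.35% of all 27443 genes. A match describes the letters only, and no binding was measured here.

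Libraries held 9665704 to 21541793 counts. All 8 root marker genes were detected in every library and made up 1.12% to 1.26% of counts in saline at 7 d and 0.555% to 0.914% elsewhere. The 15 photosynthetic tissue markers made up 0.302% and 1.69% of counts in ipdc 24 h replicates 1 and 2, and 0.0502% to 0.269% elsewhere. The 9 seed storage markers made up 4.74% and 0.267% in the same order, and 0.00132% to 0.117% elsewhere. The ipdc 24 h libraries thus stood apart, each most strongly on a different marker set. The Az39 24 h libraries stood apart on the growth genes themselves: all 9 were higher in replicate 1 than in replicate 2, by a median of 1.04 on the log2 scale, whereas 47.9% of all genes were higher in replicate 1 and the median over all genes was -0.02. The Az39 7 d libraries differed the other way, with 2 of the 9 higher in replicate 1, a median of -0.61 and -0.02 over all genes. Summed over the 9 genes, the level at 24 h was 75.4 and 38.5 TMM-scaled counts-per-million (CPM) with Az39, and 47.9 and 51.5 CPM in saline. In whole roots, fewer hair cells and less RNA per hair cell cannot be told apart.

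Between genes, levels were compared as CPM per kb of annotated exon. In saline roots at 7 d PRP3 was the most abundant at 12.5 ± 2.14 CPM per kb (SD, n = 2), followed by RHD2 at 8.21 ± 0.0448 and EXPA7 at 7.19 ± 0.95. EXPA18 at 6.79 ± 0.206, RSL2 at 6.19 ± 0.575 and LRX1 at 5.85 ± 0.0691 came next. COW1 at 3.87 ± 0.0771, RHD6 at 3.55 ± 0.977 and RSL4 at 2.08 ± 0.381 were the lowest. Within this order EXPA7, EXPA18, RSL2 and LRX1 each lay within 1 SD of a neighbour, as did COW1 and RHD6. At 24 h in saline the order began the same way, with PRP3 at 7.45 ± 2.14, RHD2 at 4.27 ± 0.0716 and EXPA7 at 3.7 ± 0.28 CPM per kb, but RSL2 at 1.62 ± 0.187 stood next to last, above RSL4 at 1.02 ± 0.0735.

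**Figure D1:**
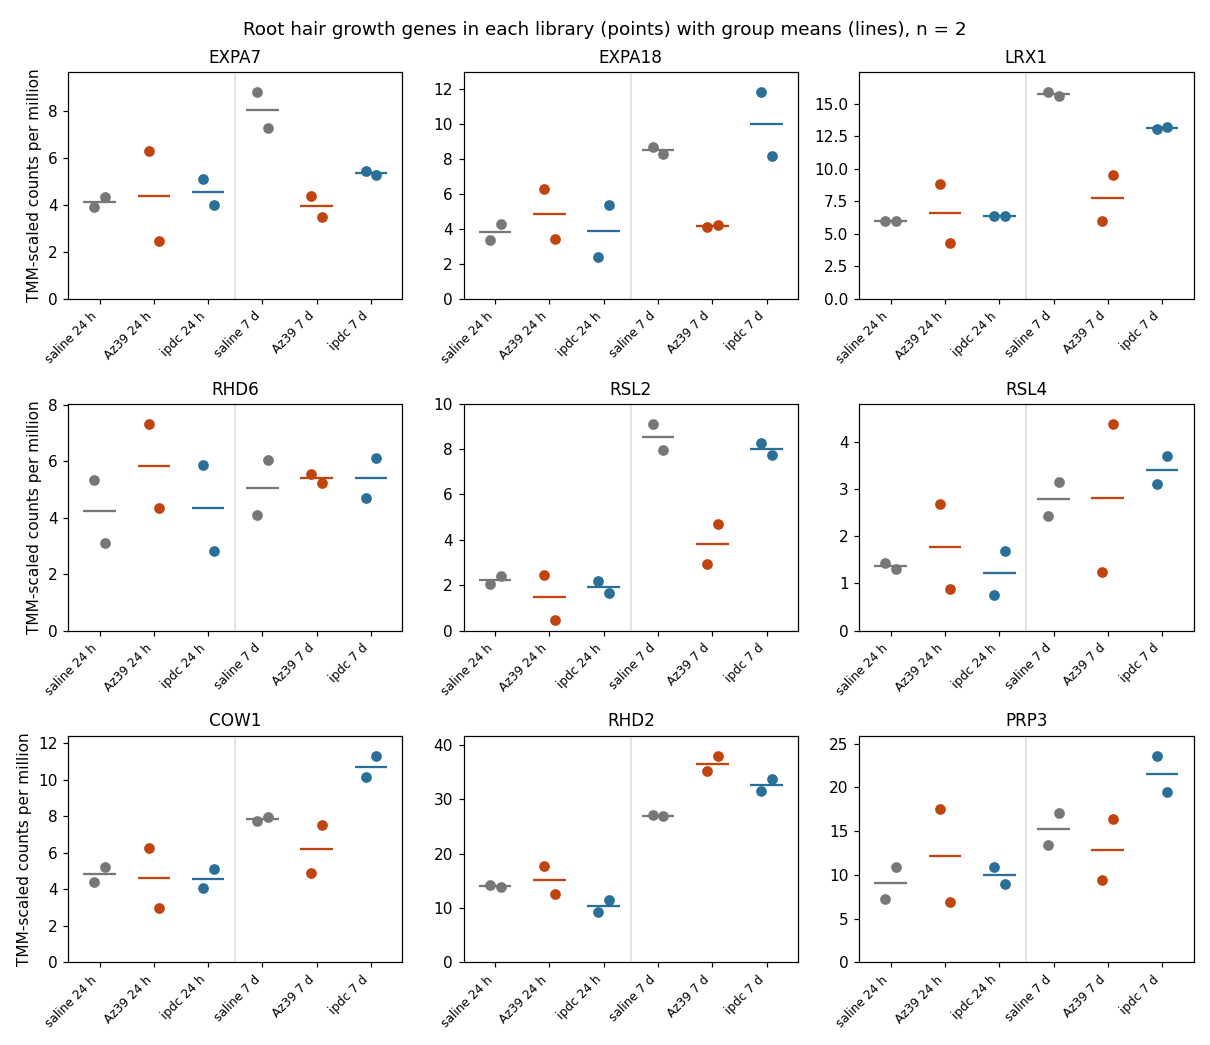
Level of each root hair growth gene in every library, in TMM-scaled CPM (vertical axis from 0, one scale per gene), with points for the 2 libraries of a group, short lines for their mean, and grey, orange and blue for saline, Az39 and ipdc. RHD2 is higher in every 7 d library than in every 24 h library, and the Az39 24 h libraries lie far apart for most genes. EXPA7, EXPA18, LRX1, RSL2 and, by a small margin, COW1 are lower in both Az39 7 d libraries than in the other 4 libraries at 7 d.

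Roots held more transcript of several growth genes at 7 d than at 24 h. In saline roots LRX1, RSL2 and RHD2 rose, in ipdc-treated roots these 3 rose together with EXPA18 and COW1, and in Az39-treated roots RHD2 alone passed the test. In saline 3 of 9 were called higher, against 8.02% of all genes tested, and 16.6% of all genes were called in either direction. With ipdc 5 of 9 were called higher, against 9.6% of all genes (20.1% in either direction). With Az39 1 of 9 was called higher, against 9.71% of all genes (13.9% in either direction). A call needed a Benjamini-Hochberg adjusted p under 0.05 over all genes in edgeR's quasi-likelihood test, and the values below are log2 fold changes ± SE unless CPM is written.

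Among the regulators, RHD6, which sits at the top of the pathway, was measured at 5.35 and 3.10 CPM in saline roots, 7.31 and 4.36 in Az39 roots and 5.87 and 2.83 in ipdc roots at 24 h. At 7 d it was at 4.08 and 6.05, 5.54 and 5.24, and 4.71 and 6.10 CPM in the same order. The libraries of the groups compared overlapped for RHD6 in every comparison, and its changes with time were 0.27 ± 0.42 in saline, -0.10 ± 0.43 with Az39 and 0.32 ± 0.44 with ipdc.

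RSL2, a bHLH factor of later hair growth, was at 2.06 and 2.42 CPM in saline roots, 2.47 and 0.476 in Az39 roots and 2.18 and 1.68 in ipdc roots at 24 h. At 7 d its levels were 9.09 and 7.97 CPM in saline roots, 2.95 and 4.68 in Az39 roots and 8.26 and 7.74 in ipdc roots. Saline and ipdc roots at 7 d thus stood well above all 24 h libraries, and Az39 roots lay between. The rise was 3.79-fold in saline (1.92 ± 0.53, adjusted p = 0.0364) and 4.14-fold with ipdc (2.05 ± 0.55, adjusted p = 0.0306). With Az39 the value was 1.44 ± 0.57 (adjusted p = 0.12), and it was called at 2.98 without Az39 24 h replicate 1 and stood at 0.62 without replicate 2, which held 7 counts of RSL2.

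RSL4, whose level is known to set the length of hairs, was the scarcest of the genes per length in saline, with 8 to 70 counts per library. It was at 1.44 and 1.3 CPM in saline roots, 2.68 and 0.885 in Az39 roots and 0.757 and 1.68 in ipdc roots at 24 h, and at 2.43 and 3.15, 1.24 and 4.37, and 3.10 and 3.7 CPM at 7 d. Both 7 d libraries were above both 24 h libraries with saline and with ipdc, but not with Az39, where the 7 d replicates differed most. Its changes with time were 1.02 ± 0.66 in saline (adjusted p = 0.303), 0.69 ± 0.67 with Az39 (0.524) and 1.47 ± 0.69 with ipdc (0.156), and none passed.

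In signalling at the tip, RHD2, which makes the reactive oxygen of the growing hair, was at 14.2 and 13.9 CPM in saline roots, 17.8 and 12.7 in Az39 roots and 9.37 and 11.5 in ipdc roots at 24 h. It reached 27.1 and 26.9 CPM in saline roots, 35.2 and 37.9 in Az39 roots and 31.5 and 33.8 in ipdc roots at 7 d, so that the highest 24 h library was below the lowest 7 d library. The rise was 1.93-fold in saline (0.95 ± 0.19, adjusted p = 0.0149), 2.41-fold with Az39 (1.27 ± 0.19, adjusted p = 0.00332) and 3.13-fold with ipdc (1.64 ± 0.19, adjusted p = 0.0027). COW1, which moves phosphoinositides at the tip, was at 4.42 and 5.25, 6.28 and 2.99, and 4.07 and 5.13 CPM at 24 h with saline, Az39 and ipdc, and at 7.75 and 7.97, 4.89 and 7.55, and 10.1 and 11.3 CPM at 7 d. It was highest in both ipdc 7 d libraries and rose 2.33-fold with ipdc (1.22 ± 0.36, adjusted p = 0.0395). Its values were 0.70 ± 0.34 in saline and 0.44 ± 0.36 with Az39.

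In the cell wall, LRX1, an extensin-type protein that links wall and membrane, was at 5.97 and 5.97 CPM in saline roots, 8.85 and 4.29 in Az39 roots and 6.34 and 6.36 in ipdc roots at 24 h. At 7 d it was at 15.9 and 15.6 CPM in saline roots, 6.02 and 9.55 in Az39 roots and 13.0 and 13.2 in ipdc roots. Replicates agreed closely with saline and ipdc, and in those roots LRX1 rose 2.63-fold (1.40 ± 0.32, adjusted p = 0.022) and 2.07-fold (1.05 ± 0.33, adjusted p = 0.0495). With Az39, where the libraries of both times overlapped, the value was 0.26 ± 0.33.

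EXPA18, an expansin that loosens the hair wall, was at 3.34 and 4.26, 6.28 and 3.40, and 2.37 and 5.39 CPM at 24 h with saline, Az39 and ipdc. At 7 d it was at 8.68 and 8.31 CPM in saline roots, 4.13 and 4.24 in Az39 roots and 11.8 and 8.15 in ipdc roots, so that the Az39 libraries were about as low as at 24 h. It rose 2.56-fold with ipdc (1.36 ± 0.41, adjusted p = 0.0452), and its values were 1.16 ± 0.40 in saline (adjusted p = 0.0751) and -0.19 ± 0.41 with Az39. EXPA7, its close relative in the same hair cells, was at 3.91 and 4.35, 6.28 and 2.45, and 5.11 and 3.98 CPM at 24 h, and at 8.78 and 7.28 CPM in saline roots, 4.36 and 3.50 in Az39 roots and 5.42 and 5.28 in ipdc roots at 7 d. Both saline libraries at 7 d were above all other libraries, but no change of EXPA7 with time passed, at 0.96 ± 0.38 in saline (adjusted p = 0.112), -0.13 ± 0.40 with Az39 and 0.24 ± 0.39 with ipdc. PRP3, a proline-rich structural protein of the hair wall, was at 7.25 and 10.9, 17.5 and 6.94, and 10.9 and 9.02 CPM at 24 h, and at 13.4 and 17.1, 9.38 and 16.4, and 23.6 and 19.5 CPM at 7 d. It was highest in the ipdc 7 d libraries, and its values were 0.74 ± 0.41, 0.09 ± 0.42 and 1.11 ± 0.42 in saline, Az39 and ipdc (adjusted p = 0.238, 0.905 and 0.0886).

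**Figure D2:**
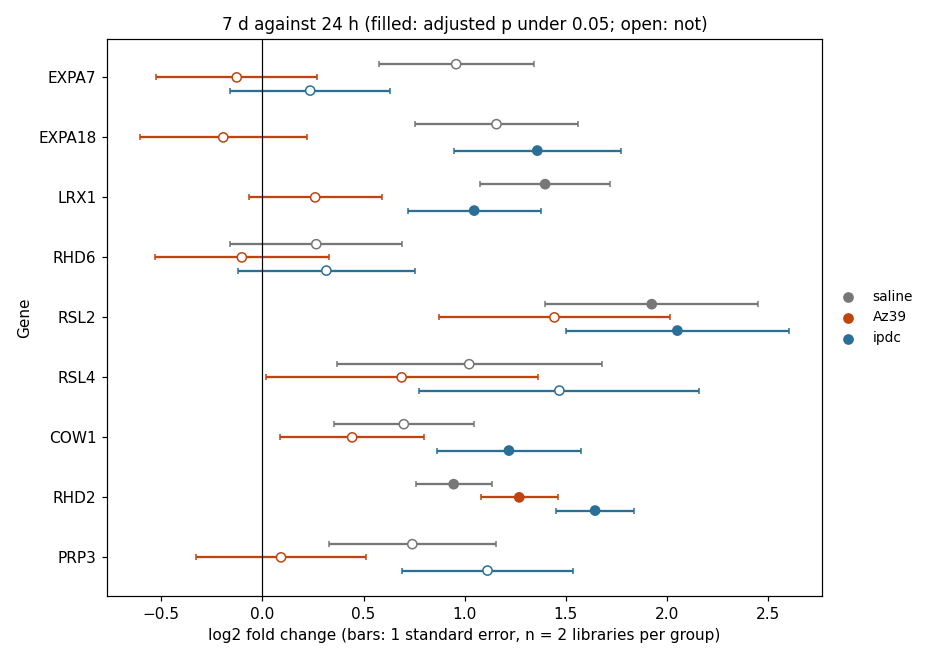
Log2 fold change from 24 h to 7 d for each root hair growth gene (horizontal axis, bars of 1 SE, 2 libraries per group) in saline (grey), Az39 (orange) and ipdc (blue) roots, filled where the adjusted p was under 0.05. All values lie above 0 in saline and ipdc, whereas EXPA7, EXPA18 and RHD6 lie just below 0 with Az39.

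Over the 9 genes the median change with time was 0.96 in saline roots, 0.26 in Az39 roots and 1.22 in ipdc roots, beside 0.01, -0.01 and -0.05 over all genes tested. All 9 values were above 0 in saline and with ipdc, and 6 of 9 with Az39. The values with Az39 turned on its 24 h libraries. Without Az39 24 h replicate 1 all 9 were above 0, from 0.30 for EXPA18 to 2.98 for RSL2. Without replicate 2 EXPA7, EXPA18, LRX1, RHD6, COW1 and PRP3 were below 0, from -0.67 for EXPA7 to -0.01 for COW1. RSL2 and RHD2 stayed above 0 there, at 0.62 and 1.04. Both 7 d libraries exceeded both 24 h libraries for 8 of 9 genes in saline and with ipdc, where 33.9% and 30.2% of all genes did so, and for 2 of 9 with Az39, where 30% of all genes did so. These calls were close to the limit of 2 libraries per group. Most calls in saline and with ipdc were lost when 1 library of the groups compared was left out. Such fits keep 1 library in a group, so a lost call alone does not show that a value rested on the library left out. In saline LRX1 ran from 1.39 to 1.43, RSL2 from 1.81 to 2.08 and RHD2 from 0.94 to 0.96. Of the genes called with ipdc EXPA18 moved most, from 0.93 to 2.07. In these fits RHD2 ran from 1.04 to 1.53 with Az39 and from 1.54 to 1.80 with ipdc. With the replicate mark as a block 2 of the 5 ipdc calls were left. The share of root marker counts was also higher at 7 d than at 24 h in saline, and photosynthetic and seed storage markers were higher in ipdc roots at 24 h, as given above. Their part in the changes with time was not tested.

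At 7 d, 4 of the 9 genes had about 2-fold less transcript with Az39 than with saline, yet none passed the test. EXPA7 stood at -1.03 ± 0.39 (95% interval -1.89 to -0.16, adjusted p = 0.146), EXPA18 at -1.02 ± 0.40 (-1.92 to -0.12, 0.161), LRX1 at -1.02 ± 0.32 (-1.73 to -0.30, 0.0972) and RSL2 at -1.16 ± 0.51 (-2.30 to -0.02, 0.2). Without Az39 7 d replicate 1 LRX1 and RSL2 stood at -0.72 and -0.87, and without replicate 2 at -1.39 and -1.53. Both Az39 libraries were below both saline libraries for each of these genes and for COW1, which stood at -0.34 ± 0.34. RHD2 pointed the other way, with both Az39 libraries above both saline libraries, at 0.44 ± 0.18 (adjusted p = 0.184). RHD6 at 0.09 ± 0.42, RSL4 at 0.00 ± 0.64 and PRP3 at -0.24 ± 0.41 overlapped between the groups.

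By edgeR 0 of the 9 genes were called in this comparison, where 3.69% of all genes were called in either direction. At an unadjusted p under 0.05 there were 5 of 9 (4 lower, and RHD2 higher), against 24.3% of all genes. Libraries were lower without overlap for 5 of 9 (the same 4 and COW1), against 26.4% of all genes. DESeq2 called 1 of the 9, LRX1 at -1.03 (adjusted p = 0.0457), and called 1981 genes in all where edgeR called 696. The median over the 9 genes was -0.34, beside 0.05 over all genes. Genes with a Root Hair Element before their start were at -1.03, -1.02, -1.02 and -0.24, and those without at 0.09, -1.16, 0.00, -0.34 and 0.44. The motif was defined in part on EXPA7 and EXPA18, and a link between motif and change was not tested. Root marker counts were also lower with Az39 than with saline at 7 d, at 0.555% to 0.914% against 1.12% to 1.26%, and their part in these values was not tested.

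**Figure D3:**
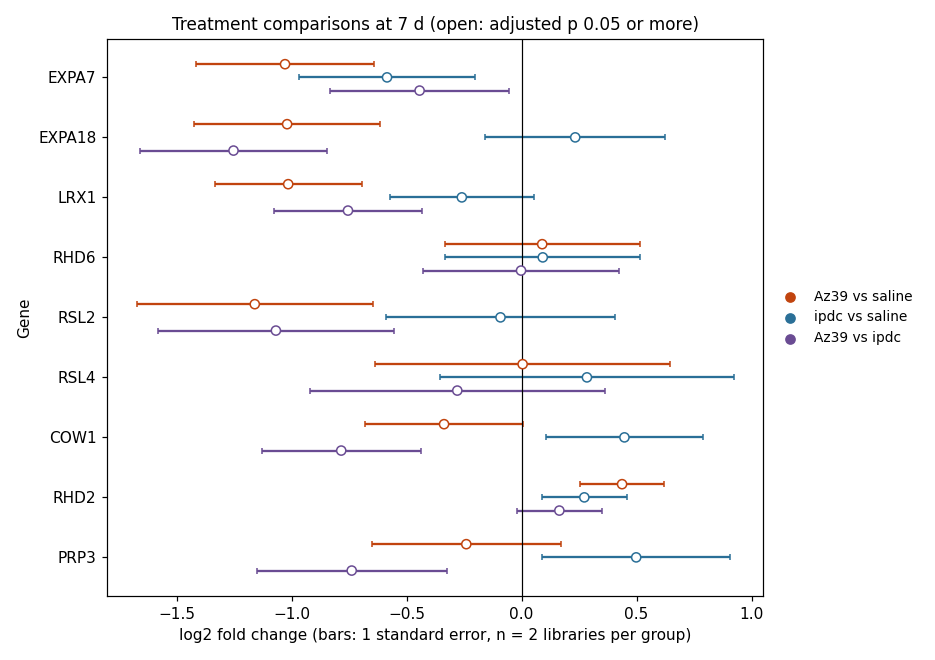
Log2 fold change of each root hair growth gene at 7 d (horizontal axis, bars of 1 SE, 2 libraries per group) for Az39 against saline (orange), ipdc against saline (blue) and Az39 against ipdc (purple), with open points since none had an adjusted p under 0.05. EXPA7, EXPA18, LRX1 and RSL2 lie near -1 for Az39 against saline, while for ipdc against saline the 9 values run from -0.59 to 0.50.

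With ipdc against saline at 7 d the 9 values ran from EXPA7, the lowest at -0.59 ± 0.38, to PRP3, the highest at 0.50 ± 0.41. EXPA18 stood at 0.23 ± 0.39, LRX1 at -0.26 ± 0.31, RSL2 at -0.09 ± 0.50 and COW1 at 0.45 ± 0.34. RHD2 stood at 0.27 ± 0.18, RSL4 at 0.28 ± 0.64 and RHD6 at 0.09 ± 0.42. Both ipdc libraries were below both saline libraries for EXPA7 and LRX1 (2 of 9, against 23.7% of all genes) and above both for COW1, RHD2 and PRP3 (3 of 9, against 28.6%). None passed with edgeR or DESeq2 (smallest edgeR adjusted p = 0.63), where edgeR called 0.0159% of all genes, and 0 of 9 had an unadjusted p under 0.05, against 10.5% of all genes. Both strains were set against the same saline libraries, so their values share those libraries.

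Compared directly at 7 d, roots with Az39 had lower levels than roots with ipdc for most of the growth genes, but again none passed. EXPA18 stood at -1.25 ± 0.41 (95% interval -2.16 to -0.35, adjusted p = 0.417), RSL2 at -1.07 ± 0.51 (-2.22 to 0.08, 0.559), COW1 at -0.78 ± 0.35 (-1.56 to -0.01, 0.536) and LRX1 at -0.76 ± 0.32 (-1.47 to -0.04, 0.532). PRP3 stood at -0.74 ± 0.41 and EXPA7 at -0.44 ± 0.39, and for all 6 both Az39 libraries were below both ipdc libraries, as for 20.3% of all genes. RSL4 stood at -0.28 ± 0.64, RHD6 at 0.00 ± 0.43 and RHD2 at 0.16 ± 0.18. The size of several values rested on 1 Az39 library: without Az39 7 d replicate 1 LRX1, COW1 and PRP3 stood at -0.46, -0.50 and -0.39, and without replicate 2 at -1.13, -1.13 and -1.20. Called genes made up 0.117% of all genes, and DESeq2 called 0 of the 9. At an unadjusted p under 0.05 there were 3 of 9, all lower, against 1743 of 18867 genes in either direction. Counted as lower only, the share of all genes was 3.49%, which is not comparable with the shares in either direction given for the other comparisons. The median of the 9 was -0.74, beside 0.01 over all genes.

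At 24 h no growth gene passed the test between treatments with edgeR or DESeq2. With Az39 against saline the 9 values ran from -0.68 ± 0.57 for RSL2 to 0.46 ± 0.43 for RHD6, with 0% of all genes called and 0 of 9 at an unadjusted p under 0.05 (1.32% of all genes). These values turned on the 2 Az39 libraries: without replicate 1, 8 of the 9 genes were below 0, and without replicate 2 all 9 were above 0. With ipdc against saline they ran from -0.43 ± 0.19 for RHD2 (adjusted p = 0.31) to 0.14 ± 0.39 for EXPA7, where 2.11% of all genes were called and 0 of 9 had an unadjusted p under 0.05 (16.3% of all genes). With Az39 against ipdc RHD2 was highest at 0.54 ± 0.19 (adjusted p = 0.176) and the only 1 of the 9 at an unadjusted p under 0.05 (18.6% of all genes), and 0.959% of all genes were called. Photosynthetic and seed storage markers were higher in the ipdc 24 h libraries, as given above, and their part in these values was not tested.

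The difference between the 7 d and 24 h responses was tested as an interaction. For Az39 it was lowest for EXPA18 at -1.35 ± 0.58 (adjusted p = 0.398), LRX1 at -1.14 ± 0.46 (0.372) and EXPA7 at -1.08 ± 0.55 (0.478). By edgeR and by DESeq2 0 of 9 were called, with 0.0424% of all genes called by edgeR, and 2 of 9 had an unadjusted p under 0.05 (11.8% of all genes). Without Az39 24 h replicate 1 these differences were -0.86, -0.54 and -0.28. For ipdc RHD2 was highest at 0.70 ± 0.27 (adjusted p = 0.284), 0 of 9 were called by either tool, with 0.106% of all genes called by edgeR, and 1 of 9 had an unadjusted p under 0.05 (13.9% of all genes).

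A further 73 root hair genes in 4 lists, of which 63 were tested, set the growth genes in their pathway. At 7 d with Az39 against saline 3 of the 63 rose (4.76%, beside 2.35% of all genes) and 0 fell (beside 1.34% of all genes). The median was -0.09, beside 0.05 over all genes. The riser of the 12 cell fate genes was CPC, a small MYB protein that promotes hair fate, at 3.87 and 4.62 CPM in saline roots, 14.5 and 9.42 in Az39 roots and 9.17 and 8.91 in ipdc roots (1.49 ± 0.30 for Az39 against saline, adjusted p = 0.0302). Of the 26 signalling and polarity genes RHD4, a phosphoinositide phosphatase of the hair tip, rose from 52.4 and 59.6 to 98.5 and 99.4 CPM (0.82 ± 0.17, adjusted p = 0.0344). Of the 18 genes listed for the wall RHS2 (AT1G12950), which is annotated as a root hair specific gene and is not a wall protein, rose from 5.42 and 4.43 to 32.3 and 35.9 CPM (2.79 ± 0.24, adjusted p = 0.00133). RHS2 was at 11.6 and 10.3 CPM with ipdc and was also the 1 gene of the 63 called for Az39 against ipdc (1.64 ± 0.22, adjusted p = 0.0327). With 1 library of the groups compared left out, RHS2 against saline ran from 2.65 to 2.94, CPC from 1.15 to 1.77 and RHD4 from 0.73 to 0.92. RHS2 against ipdc ran from 1.56 to 1.73. The calls of CPC, of RHD4 and of RHS2 against ipdc did not hold in all of these fits.

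Of the 7 other regulators of hair growth tested, none passed between treatments at 7 d, and 6 of 7 lay below 0 for Az39 against saline (median -0.43). For Az39 against ipdc 46 of the 63 genes lay below 0 (median -0.28, beside 0.01 over all genes), with medians of -0.55 for the wall list, -0.33 for the regulators, -0.25 for signalling and polarity and -0.04 for cell fate. For ipdc against saline 0 of the 63 were called (median 0.18), and at 24 h 0 were called in any of the 3 treatment comparisons. The shares of all genes called in each comparison are those given above.

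**Figure D4:**
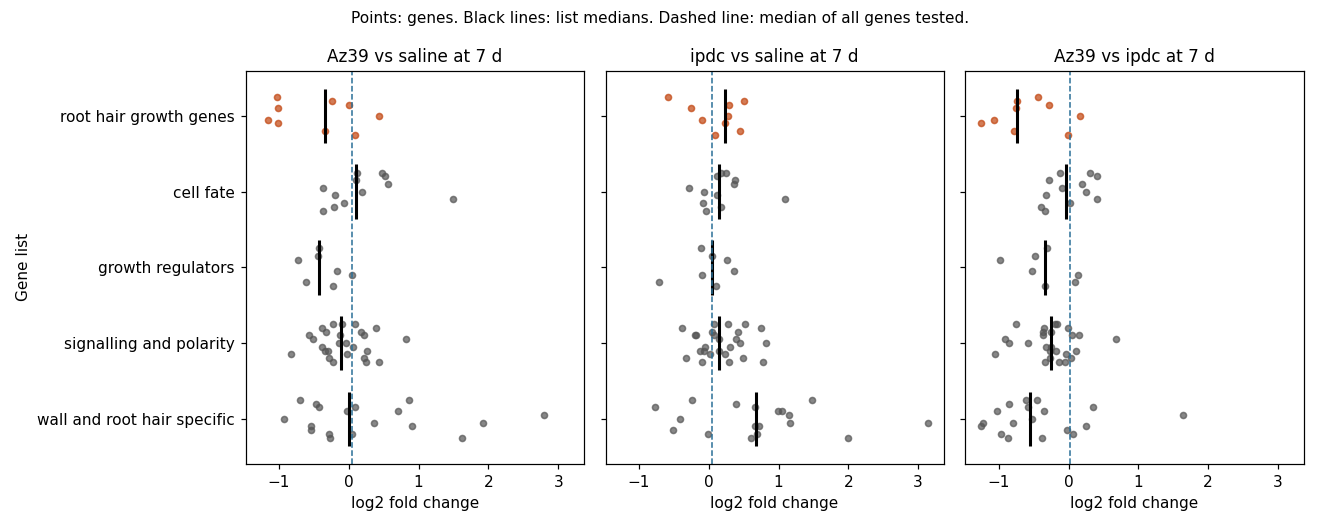
Log2 fold change at 7 d (horizontal axis) of the 9 root hair growth genes (orange) and of the genes tested in 4 further root hair lists (grey), with black lines for list medians and a dashed line for the median of all genes tested. For Az39 against ipdc the growth genes have the lowest median, -0.74, and the wall list follows at -0.55.

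Between times, 6 of the 63 genes rose in saline, 6 rose and 2 fell with Az39, and 11 rose with ipdc. The shares called higher were 9.52%, 9.52% and 17.5%, beside 8.02%, 9.71% and 9.6% of all genes, and 3.17% were called lower with Az39, beside 4.23%, so the shares in saline and with Az39 were near those of all genes. In saline the risers included OBP4, a factor known to restrain RSL2, which rose 2.49-fold (1.32 ± 0.18, adjusted p = 0.00779), the receptor kinase FER, which rose 2.02-fold (1.02 ± 0.25, adjusted p = 0.0275), and the hair syntaxin SYP123 at 2.23 ± 0.52 (adjusted p = 0.0225). OXI1, a kinase of oxidative signalling, rose in all 3 treatments, by 2.69 ± 0.65, 3.23 ± 0.67 and 2.87 ± 0.66 with saline, Az39 and ipdc (adjusted p = 0.0258, 0.0136 and 0.018), as did the actin-depolymerizing factor ADF11 by 0.96 ± 0.23, 0.92 ± 0.23 and 1.24 ± 0.23 (0.024, 0.0298 and 0.0104). With Az39 the fate gene GL3 and the growth repressor DF1 fell, by 1.39 ± 0.33 and 0.70 ± 0.17 (adjusted p = 0.0229 for each), and the cellulose synthase-like gene CSLD3 rose 2.50-fold (1.32 ± 0.29, adjusted p = 0.0177). With ipdc CSLD3 rose 2.99-fold (1.58 ± 0.30, adjusted p = 0.0101), and the wall peroxidase PRX73 and the arabinogalactan protein AGP3 rose by 1.69 ± 0.38 and 1.57 ± 0.37 (adjusted p = 0.0174 and 0.019). Most of these calls did not hold in every fit with 1 library of the groups compared left out. Such fits keep 1 library in a group, so a lost call alone does not show that it rested on that library. In them OXI1 in saline ran from 1.56 to 3.43 and SYP123 in saline from 1.93 to 2.48. ADF11 in saline ran from 0.80 to 1.11 and DF1 with Az39 from -0.84 to -0.54. RHS2 rose by 2.83 ± 0.24 with Az39 (adjusted p = 0.000497) and by 1.90 ± 0.25 with ipdc (adjusted p = 0.00298). With 1 library left out RHS2 ran from 2.64 to 3.03 and from 1.74 to 2.15. Over the 63 genes the median change was 0.39 in saline, 0.19 with Az39 and 0.41 with ipdc.

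The genes whose pattern over the 12 libraries was most like the mean of the 9 growth genes were MOP10 (AT5G05500), AT2G41970, AT2G45750, GH9C1 (AT1G48930) and PATL1 (AT1G72150). Likeness was the root mean square difference between centred log2 CPM values, which was 0.20, 0.21, 0.21, 0.22 and 0.23 for these genes. The growth genes themselves ranged from 0.14 for COW1 and 0.18 for LRX1 to 0.54 for RHD6 and 0.64 for RSL2, so the mean pattern described some of them poorly. Of the 5, PATL1 was the most abundant, at 201 and 214 CPM with saline at 24 h and 450 and 463 at 7 d, and it rose in each treatment, by 1.14 ± 0.19, 0.75 ± 0.19 and 0.71 ± 0.19 with saline, Az39 and ipdc (adjusted p = 0.0108, 0.0318 and 0.0312). The other 4 passed in none of the comparisons with time.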

How the data were processed

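Transcripts of 12 whole-root libraries were deposited as raw read counts per gene. The authors aligned reads with HISAT2 2.2.1 and counted them with featureCounts on TAIR10 (submitters' processing notes). How strand, reads with several matches and the feature counted were set is not given in the sources used here. Counts of close paralogs such as EXPA7 and EXPA18, and of overlapping genes, are therefore uncertain.

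The tests used edgeR 4.0.16 and limma 3.58.1 in R 4.3.3. With filterByExpr (minimum count 10, minimum total 15, proportion 0.7) 18867 genes were tested. After TMM scaling, 1 model with a mean per group was fitted over the 12 libraries (6 residual degrees of freedom). Each contrast was given a two-sided quasi-likelihood F test, and a gene was called where its p, adjusted by Benjamini-Hochberg over all genes, was under 0.05. Fold changes used a prior count of 0.125. Each group had n = 2 pooled samples. Each p-value weighs a difference against 1 spread between pooled samples per gene, estimated over all groups and drawn toward that of other genes. A group with close replicates therefore shares the wider spread of other groups. The fit was tested on simulated data.

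Members and gene lists were chosen with earlier results of these data known. All members were named. From the lists, up to 4 called genes per list and comparison with the smallest adjusted p could be named, and the 5 most similar genes were ranked by centred log2 CPM. Names, exon lengths and sequences came from RefSeq TAIR10.1. Alternatives were RLE scaling, no filter, DESeq2 1.42.0, fits to 1 time and a block for the replicate mark. Libraries were also left out, each in turn for the comparisons that used its group, and both ipdc 24 h libraries at once.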

Additional observations from a re-analysis of the deposited data

How the results depend on the processing

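Of the 9 called values of the growth genes, none changed sign under any alternative run. The scaling, the filter and the fit to 1 time changed no count of called growth genes by more than 1. For Az39 against saline at 7 d DESeq2 called 1 growth gene where edgeR called 0. For 7 d against 24 h with ipdc the replicate mark as a block left 2 calls of 5, and the calls of EXPA18, LRX1 and COW1 were lost (adjusted p = 0.0778, 0.0674 and 0.0673). The block also ended the call of RSL2 in saline (adjusted p = 0.0596) and those of CPC and RHD4 for Az39 against saline at 7 d (0.0617 and 0.0655) and of RHS2 for Az39 against ipdc (0.127). LRX1 with ipdc was at adjusted p = 0.0513 with RLE scaling. DESeq2 added EXPA18 in saline (0.0384) and PRP3 with ipdc (0.0455), and EXPA18 in saline was also called without both ipdc 24 h libraries (0.0322). Correlations of same-marked libraries ran from -0.244 to 0.136. With 2 libraries per group these values cannot show whether same-marked libraries were handled together, and the labels do not say. Over all genes, DESeq2 called 2, 1399, 1394, 1981, 379 and 184 genes in the 6 treatment comparisons (24 h, then 7 d, each as Az39 and ipdc against saline and Az39 against ipdc) where edgeR called 0, 398, 181, 696, 3 and 22 and the block left 0, 37, 6, 326, 0 and 4; the cause was not tested.

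Uncalled values near 0 changed sign under other settings, and with 1 library left out so did uncalled values further from 0. Among the latter were RSL2 for Az39 against saline at 24 h (-0.68) and RSL4 for 7 d against 24 h with Az39 (0.69). With the block EXPA7 for Az39 against saline at 24 h was -0.045, LRX1 for Az39 against ipdc at 24 h -0.015 and RHD6 for Az39 against ipdc at 7 d 0.017. COW1 for Az39 against ipdc at 24 h was 0.0094 with RLE, 0.0057 with DESeq2 and 0.0052 in a fit to that time. RSL4 for Az39 against saline at 7 d was -0.0049 with RLE, -0.0010 with no filter, -0.0037 with DESeq2, -0.034 in the fit to that time, -0.15 with the block and -0.027 without both ipdc 24 h libraries. Leaving out 1 library at a time (the remaining library of its group was taken to vary like the other groups) gave 0 to 1 call in saline, 1 to 2 with Az39 and 1 to 2 with ipdc for 7 d against 24 h, and changed the sign of 47 growth gene values at least once. For Az39 against saline at 24 h the ranges were EXPA7 -0.75 to 0.60, EXPA18 -0.16 to 0.72, LRX1 -0.47 to 0.57, RSL2 -2.22 to 0.14, RSL4 -0.63 to 0.96, COW1 -0.69 to 0.37, RHD2 -0.15 to 0.34 and PRP3 -0.39 to 0.94. For ipdc against saline at 24 h, EXPA7 -0.11 to 0.31, EXPA18 -0.68 to 0.45, RHD6 -0.63 to 0.49, RSL4 -0.85 to 0.24, COW1 -0.25 to 0.042 and PRP3 -0.14 to 0.44. For Az39 against ipdc at 24 h, EXPA7 -0.89 to 0.47, EXPA18 -0.19 to 1.01, LRX1 -0.56 to 0.48, RHD6 -0.023 to 1.07, RSL2 -2.0 to 0.36, RSL4 -0.46 to 1.18, COW1 -0.62 to 0.45 and PRP3 -0.52 to 0.81. For Az39 against saline at 7 d, RHD6 -0.17 to 0.40, RSL4 -1.17 to 0.65 and PRP3 -0.70 to 0.11. For ipdc against saline at 7 d, EXPA18 -0.061 to 0.47, RHD6 -0.16 to 0.40 and RSL2 -0.18 to 0.0046. For Az39 against ipdc at 7 d, RHD6 -0.18 to 0.19 and RSL4 -1.45 to 0.36. For 7 d against 24 h with saline, RHD6 -0.046 to 0.71. For 7 d against 24 h with Az39, EXPA7 -0.67 to 0.68, EXPA18 -0.58 to 0.30, LRX1 -0.19 to 0.86, RHD6 -0.44 to 0.31, RSL4 -0.48 to 1.65, COW1 -0.014 to 1.05 and PRP3 -0.44 to 0.89. For 7 d against 24 h with ipdc, RHD6 -0.12 to 0.97. For Az39 response at 7 d minus that at 24 h, RHD6 -0.81 to 0.039, RSL2 -1.30 to 1.05, RSL4 -1.51 to 0.63, COW1 -0.71 to 0.35 and PRP3 -1.18 to 0.15. For ipdc response at 7 d minus that at 24 h, EXPA18 -0.24 to 0.92, RHD6 -0.39 to 0.70 and RSL2 -0.050 to 0.35. Depth limits RSL4 and RSL2 most, with as few as 8 and 7 counts in a library.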
